A study of Rattus norvegicus with 6 samples.

Results

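Genes with alternative last exons are genes whose transcripts end in different terminal exons, each reached by its own splice acceptor. They were taken from the exon lines of the transcript assembly of rat beta cells: a gene model (a locus and a gene name) counted when its multi-exon transcripts had at least 2 last exons with different acceptors and no overlap, and when its summed RPKM (reads per length of transcript and depth of library) was at least 1 in each of 6 libraries. Of 24579 gene models, 2545 had separate last exons, and 1679 of these reached 1 RPKM in every library, 1560 of them with a symbol. They made up 15.4% of the 10936 models at that level. The gene nearest above the limit, Lmbr1l, had a lowest library value of 1.003 RPKM, and the locus XLOC_009537, just below it, had 0.9996 RPKM.

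A transcript that stops at an upstream last exon loses all exons behind it, so the choice sets both the end of the protein and the 3′ untranslated region. An upstream last exon can lie inside an intron of the longer transcript, or can extend an internal exon into the intron behind it (a composite exon), in which case cleavage and polyadenylation compete with splicing at the same place. Classical cases are Calca, which encodes calcitonin or CGRP, and Cdc42, a small GTPase with a brain form.

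The cells were beta cells, the insulin-making cells of the pancreatic islet, sorted from rat pancreas in 3 batches. Cells of each batch received 30 nM of either a non-targeting siRNA (control) or one directed at Nova1 (knockdown), a neuronal RNA-binding protein that regulates splicing, for 16 h and then recovered for 48 h. This gave 3 control and 3 knockdown libraries of poly(A) RNA, paired by batch, and the series asks how Nova1 shapes alternative splicing in these cells. Nothing in the labels tells whether different animals gave the batches, and the p-values therefore reflect variation among these 3 batches only.

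Reads assigned to transcripts totalled 95394043 to 146453308 per knockdown library and 122637234 to 292432076 per control library, and in every batch the control was the deeper one. Nova1 itself stood at 20.6, 21.5 and 17.4 CPM (scaled read count relative to library depth) in control libraries against at 7.76, 10.2 and 9.43 CPM in the knockdown, a change of -1.12 on the log2 scale (SE 0.11; limma's adjusted p was 0.038). Ins1 and Ins2 were the most abundant of the beta cell markers, whose 14 genes summed to between 138846 and 247045 CPM in control and between 101273 and 238318 CPM in knockdown libraries. Among markers of other cells, 10 stellate cell and fibroblast genes summed to 52.1 to 117 CPM in control and 120 to 152 CPM in knockdown libraries, with Col3a1 and Col5a1 called higher. Immune markers, 14 genes, summed to 19.3 to 22.9 CPM and 18.5 to 31.7 CPM, and 8 endothelial markers to 3.80 to 5.85 CPM and 3.71 to 5.93 CPM. Acinar markers (11 genes) summed to 218 to 509 CPM in control and 177 to 394 CPM in knockdown libraries, and duct markers (7 genes) to 180 to 254 CPM and 195 to 324 CPM. Alpha, delta and PP cell markers (7 genes) summed to 5738 to 13952 CPM and 7690 to 14640 CPM. Ctrb1 (acinar) and C1qa (immune) were called lower and Lyz2 (immune) higher. No marker was at 0 in all libraries, though Vwf, Emcn, Cdh5, Cftr, Aif1 and G6pc2 were at 0 in some, and their part in the results below was not tested. In bulk libraries fewer cells of a type and less RNA per cell cannot be told apart.

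The 1679 genes held 3825 separate last exons. Most genes, 1333, had 2 of them, 262 had 3, 58 had 4, 17 had 5 and 8 had 6, and 1 gene had 8. Last exons are numbered here from the start of the gene, so that number 1 is the most proximal and the highest number the most distal. Of the 2146 last exons upstream of the most distal one, 1104 (51.4%) lay inside an intron of other transcripts, 684 (31.9%) were composite, meaning that they ran past the end of the internal exon in at least 1 other transcript, 342 (15.9%) began at the acceptor of an internal exon but ended within it, and 16 were of other kinds. Those in an intron were short, with a median of 81.5 nt, against 889.5 nt for composite exons and 809 nt for the most distal exons. In all, 163 last exons were shorter than 10 nt and 613 shorter than 50 nt, and the range ran from 1 to 23532 nt. Among all last exons, 32 followed an intron shorter than 30 nt, the shortest being 5 nt. A reference transcript ended in 2089 of the last exons (54.6%). The other last exons were found in newly assembled transcripts alone, and 1329 of the 1679 genes had a reference transcript at 1 last exon only. In genes with 2 last exons, the gap between them had a median of 5447 nt (quartiles 1447 and 18521 nt).

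**Figure D1:**
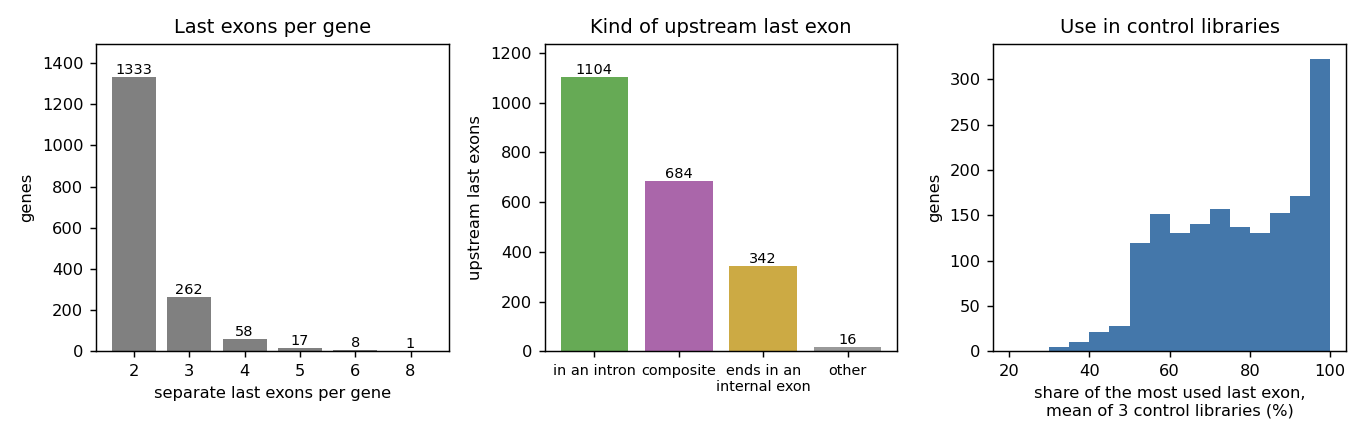
Bars on the left count genes by their number of separate last exons, bars in the middle count the last exons upstream of the most distal one by kind, and the histogram on the right gives, for each gene, the share of its most used last exon (percent of gene RPKM, mean of 3 control libraries). Most genes had 2 last exons, and 494 genes had a single last exon with at least 90% of their RPKM.

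The use of a last exon is given as its share, the summed RPKM of the transcripts that end in it as a percentage of the gene's RPKM. In control cells the most used last exon took a median of 77.7% of its gene, and it was the most distal one in 967 genes (57.6%). In 335 genes no last exon reached 60%. At least 2 last exons held 10% or more in each of the 6 libraries in 643 genes (38.3%). Shares varied between libraries of the same group, with a median SD of 5.35 percentage points over control and 5.82 points over knockdown libraries. Of the last exons, 112 were listed at 0 in all libraries and 593 in some, and with estimated reads such a 0 can be a failed estimate.

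Some genes used their last exons almost equally and with little spread. Pdcd6ip, which encodes the ESCRT-associated protein Alix, had a proximal share of 51.8%, 52.1% and 53.0% in control libraries against 51.7%, 51.4% and 50.3% in the knockdown. Ldlrad3, an LDL receptor domain protein, had a composite proximal exon at 49.99%, 53.5% and 51.1%, then 51.1%, 51.3% and 53.7%. Kif5b, the ubiquitous kinesin heavy chain, had 44.5%, 48.3% and 43.1%, then 41.4%, 40.7% and 46.1%. Nudcd3 and Dnajb12, both chaperone-related, kept their proximal exons between 46.8% and 52.3% and between 44.9% and 51.1% in all libraries. None of these passed the test described below (adjusted p between 0.43 for Nudcd3 and 0.89 for Ldlrad3).

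At the other end stood genes with many last exons and shifting estimates. Eri2, a gene with 6 last exons, had a 2-nt last exon listed at 56.4%, 0% and 76.0% in control libraries against at 0.65%, 93.4% and 1.73% in the knockdown. The share of the largest last exon of Park2, which encodes the ubiquitin ligase parkin, was 72.4%, 32.6% and 31.1% in control libraries against 22.2%, 26.6% and 56.5% in the knockdown. Ncor1, a nuclear receptor corepressor, also had 6 last exons but kept its most distal one at 83.2%, 82.0% and 88.7%, then 98.9%, 82.6% and 93.1%. These 3 genes did not pass the test (adjusted p 0.37, 0.33 and 0.80).

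Genes known for their last exons were not called in this comparison. The intronic exon of Calca at chr1:191159998-191160415 (Rnor_5.0, minus strand), the proximal of its 2 last exons, held 90.5%, 83.4% and 94.3% of the gene in control libraries against 84.2%, 92.6% and 90.4% in the knockdown. Cdc42 had its proximal 90-nt exon at 16.6%, 23.2% and 26.2%, then 19.1%, 25.8% and 23.2%. The tropomyosin genes ended almost always at the most distal exon, with 95.9% to 97.3% of Tpm1, 98.1% to 99.1% of Tpm2 and 98.4% to 99.4% of Tpm3 in control libraries. Ntrk2, the BDNF receptor, ended at the most proximal of 3 last exons in 99.9%, 99.0% and 99.3% of its RPKM in control libraries, and in 99.0%, 54.6% and 98.6% in knockdown libraries. The low value was 1 library, batch 2, and the adjusted p was 0.088. Cstf3, a subunit of the cleavage stimulation factor with a known intronic short form, had a composite exon at 23.05% in the control and 23.4% in the knockdown library of batch 2, against 4.41% to 9.03% in the other libraries. Of 8 such genes with alternative last exons, 0 were called at an adjusted p of 0.05 by the Simes test, 2 had an unadjusted p under 0.05, and 0 were called on log2(RPKM + 0.1). Over all 1838 gene models tested 2.50% were called, and 0 of 8 cannot be told from that share.

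**Figure D2:**
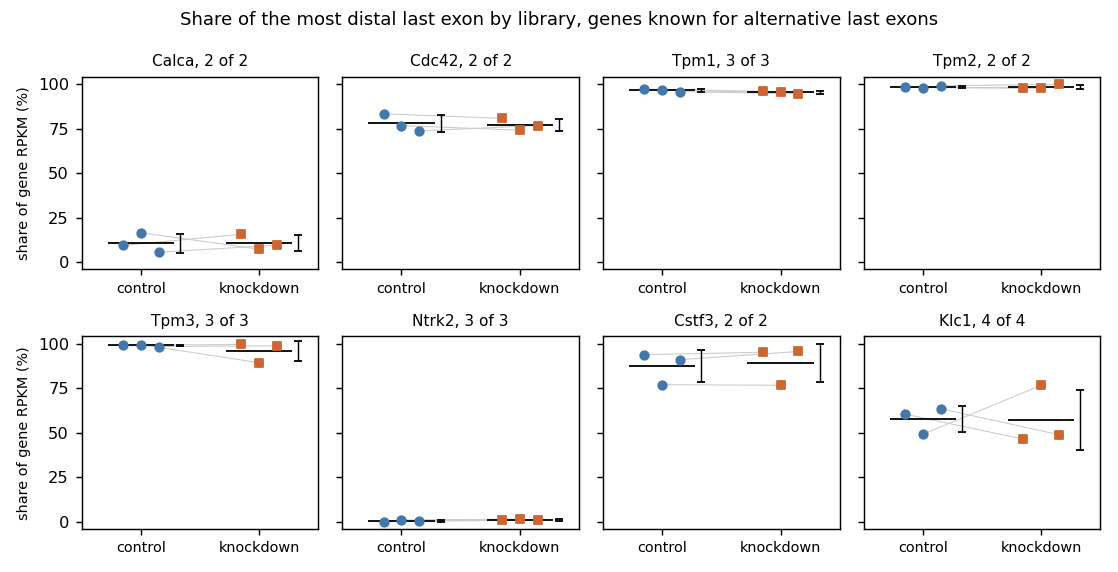
Share of the most distal last exon (percent of gene RPKM) in 8 genes known for alternative last exons, with the exon's number given in each panel; points are the 3 control and 3 knockdown libraries, grey lines join libraries of a batch, and bars give mean and SD. Groups overlap in all 8 panels, and in Klc1, a kinesin light chain gene, batch 2 goes the other way from batches 1 and 3.

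Across all members the mean share of the most distal last exon was higher in knockdown than in control cells in 876 genes, lower in 747 and equal in 56. Its median change was 0.16 points and its mean change 0.60 points. It was higher in 825, 801 and 825 genes and lower in 734, 752 and 723 genes in batches 1, 2 and 3. The median distal share over genes was 58.3%, 58.8% and 57.3% in control libraries against 59.99%, 60.3% and 58.9% in the knockdown, but the median change per gene within a batch was 0 points in each of the 3 batches. The control and knockdown shares of at least 1 last exon did not overlap in 200 of the 1679 genes (11.9%). Over the 2318 gene models with separate last exons and reads in every library, the same held for 11.0%, which is near the members' share. Those models include the members themselves, so the 2 shares are not independent. In 113 of the 200 genes the difference was at least 10 points.

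Last exon use was tested with limma's diffSplice on the reads of each last exon, with batch as a block, and the Simes p of each gene was adjusted by the Benjamini-Hochberg method over all gene models tested. The log2 value it gives is the change of a last exon relative to the other last exons of its gene. Enough reads were present in 1483 of the 1679 genes. Over all 1838 models tested, these genes included, 2.50% were called at an adjusted p under 0.05. Among the 1483 genes, 43 (2.90%) were called. The distal share was higher in knockdown cells in 22 and lower in 20. The last exon that changed most moved by a median of 13.2 points (1.91 to 60.1), 28 genes moved by at least 10 points and 12 by at least 25 points. It moved in 1 direction in all batches in 42 of the 43 genes, the exception being Zbtb8os-ps1, and did not overlap between groups in 34. Both counts come from the same contrast as the calls and are no separate evidence for them. Over all 1679 members, at least 1 last exon did not overlap in 11.9%. In 9 genes, Tbxas1, Cog2, Tubb2a, Nfe2l1, Zfp418, Casz1, Wdr59, Ints7 and Med25, the most used last exon was a different one in the 2 groups.

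The number called moved with the batches: 33, 70 and 110 genes were called without batch 1, 2 and 3, and 19 without the block for batch. Over all 1838 models tested the counts were 35, 83 and 130, and 21 without the block. Only 11, 21 and 27 of the 43 genes were among those called without batch 1, 2 and 3, so most of the further calls were other genes. Of the 43 genes, 14 were also called without the block, 25 on log2(RPKM + 0.1), and 5 in all fits that left out a batch: Cog2, Tubb2a, Syt16, Pdzrn3 and the unnamed locus XLOC_014079. Of these 5, Syt16 and Pdzrn3 were not called on log2(RPKM + 0.1) (adjusted p 0.094 and 0.068). Pdzrn3 had no test once last exons under 50 nt were left out. XLOC_014079 had none when only last exons above 0 in all libraries were kept. Large changes without a call were common: a last exon moved by at least 10 points in 412 of the 1483 genes, and 28 of these were called. An unadjusted Simes p under 0.05 was found in 310 genes, the called ones included.

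**Figure D3:**
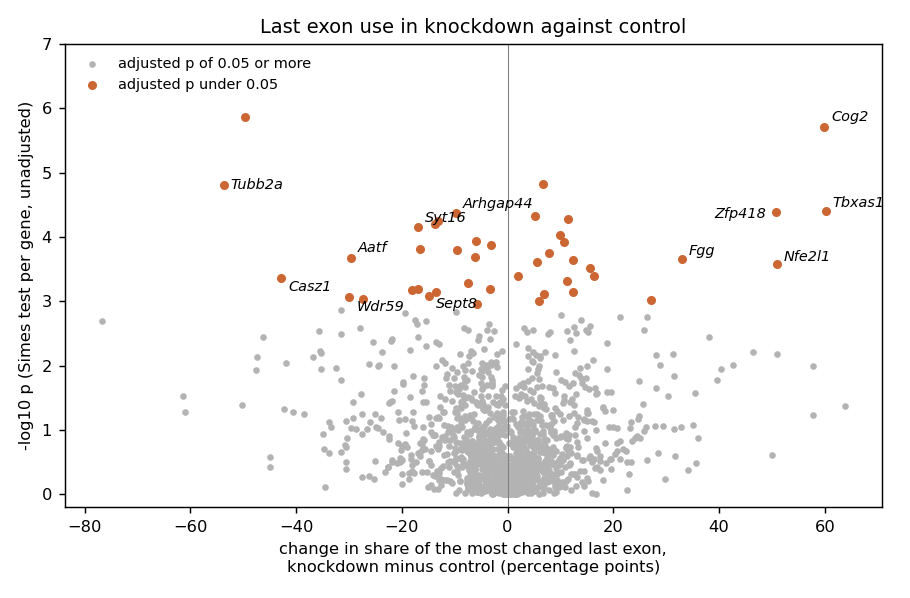
Each point is 1 of the 1483 genes tested; the horizontal axis gives the change in share of its most changed last exon (percentage points, knockdown minus control, mean of 3 libraries each) and the vertical axis the unadjusted Simes p on a -log10 scale. The 43 called genes, in orange, reach from small moves such as 1.91 points in Klf6 to 60.1 points in Tbxas1, and many grey genes moved as far without a call.

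In genes with 2 last exons, a composite proximal exon was called in 17 of 421 tested genes (4.04%), an intronic one in 10 of 559 (1.79%) and one ending within an internal exon in 5 of 168 (2.98%). These shares were not compared by a test. Among the called composite exons the proximal share rose in 10 genes and fell in 7. Among the called intronic exons it rose in 3 and fell in 7, and among the exons ending within an internal exon it rose in 2 and fell in 3.

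Cog2 and Tubb2a made the clearest exchanges between a composite proximal exon and a distal one. Cog2 encodes a subunit of the conserved oligomeric Golgi complex, a tether for transport within the Golgi. Its composite exon (chr19:68023356-68024396, plus strand, where a reference transcript ends, and which other transcripts use as an internal exon of 228 nt) held 1.15%, 2.61% and 1.48% of the gene in control cells and 66.1%, 54.1% and 64.6% in knockdown cells. The groups were far apart, and the rest of the gene ended at an 81-nt exon (chr19:68026295-68026375) seen in new transcripts only. The proximal share rose by 59.9 points, with a relative log2 change of 6.45 (SE 0.37, adjusted p 0.0018). The whole gene stood at 4.95, 6.96 and 4.11 RPKM (control) and 4.79, 6.79 and 4.21 RPKM (knockdown).

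Tubb2a, a beta-tubulin gene, went the other way. The composite exon of its reference transcript (chr17:33388954-33390011, plus strand) held 99.1%, 96.9% and 99.6% in control cells and 47.7%, 43.4% and 43.5% in knockdown cells. The distal exon (chr17:33391515-33391855) of 2 new transcripts took up the rest, from 1.43% ± 1.43 (SD, n = 3) to 55.1% ± 2.45. The proximal exon fell by 6.65 on the relative log2 scale (SE 0.54, adjusted p 0.0072), while gene RPKM was 34.8, 37.9 and 29.2, then 34.7, 34.1 and 26.9.

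Nfe2l1 is a transcription factor known for inducing proteasome genes. Its composite proximal exon of 3034 nt (chr10:84479727-84482760, minus strand), seen in new transcripts, runs past the internal exon of some transcripts but ends within the 5348-nt internal exon of the most abundant distal-ending transcript. It held 37.1%, 10.1% and 9.39% in control cells and 74.2%, 64.2% and 71.0% in knockdown cells. The share rose from 18.9% ± 15.8 to 69.8% ± 5.10, with a relative log2 change of 4.28 (SE 0.57, adjusted p 0.019). The gene's reads were 282, 297 and 206 CPM in control libraries against 298, 297 and 249 CPM in the knockdown (log2 fold change 0.12, adjusted p 0.32). Its summed RPKM, which counts shorter transcripts for more, was 50.5, 46.3 and 29.9, then 75.9, 91.2 and 64.2. Without batch 2 the adjusted p for last exon use was 0.081. The most abundant transcripts with the proximal and the distal last exon also began at different exons, of 22 nt and 176 nt, the latter farther upstream.

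**Figure D4:**
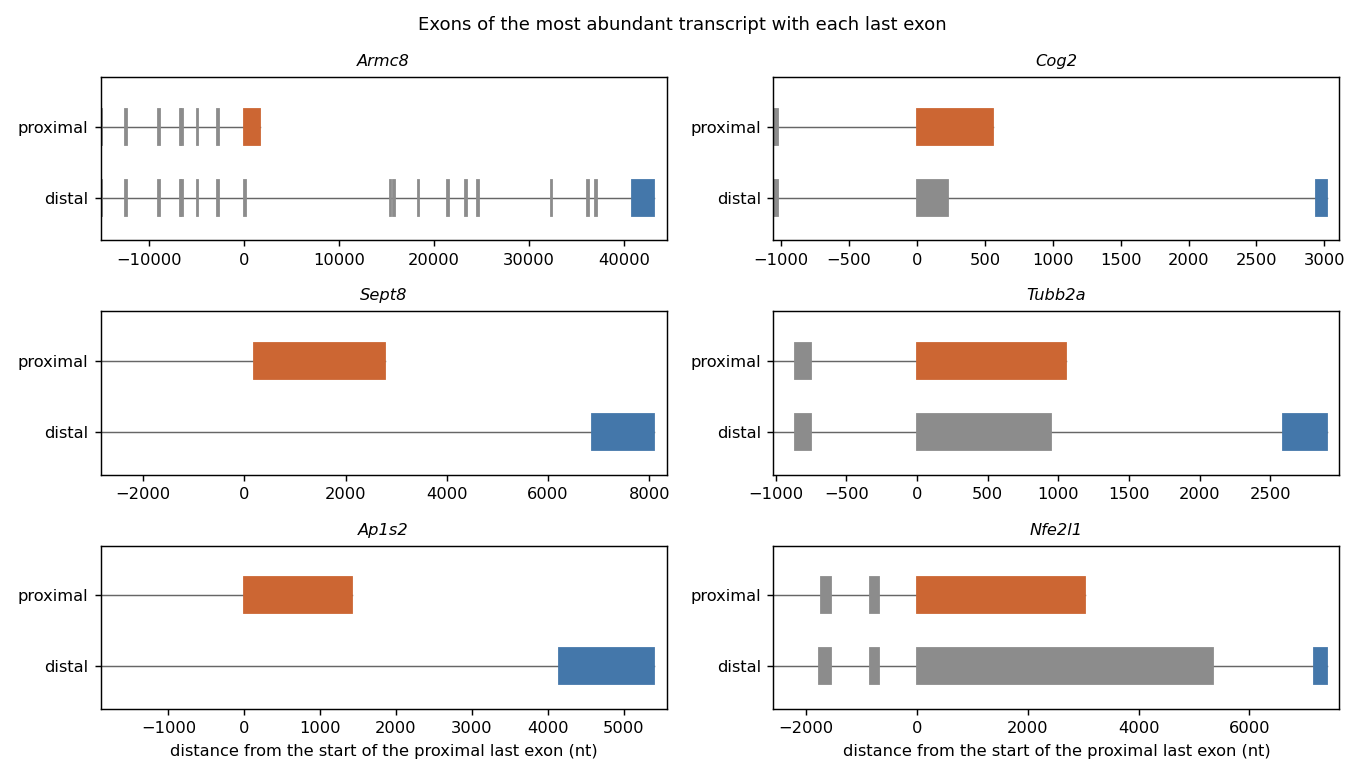
Exons (boxes) and introns (lines) around the last exons of 6 called genes, drawn to scale in nt from the start of the proximal last exon. The most abundant transcript with each last exon is shown. Orange marks the proximal and blue the distal last exon, and grey boxes are the other exons of each transcript, not all of them shared. In Armc8, Cog2, Tubb2a and Nfe2l1 the proximal exon shares its start with an internal exon, and in Sept8 and Ap1s2 it lies inside an intron; the line runs on upstream beyond the panel.

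Fgg encodes the fibrinogen gamma chain, a gene known for a second protein form made by cleavage within its last intron. Its composite exon (chr2:201408231-201408763, plus strand), which continues an internal exon of 170 nt into the intron, held 65.2%, 49.5% and 54.2% in control cells and 93.6%, 92.3% and 81.8% in knockdown cells. The groups did not overlap, and the share rose by 32.9 points (relative log2 change 2.58, SE 0.33, adjusted p 0.018). Whether this exon is the one of that known form was not tested. The gene was at 2.44, 3.70 and 5.75 RPKM in control and 2.35, 3.56 and 4.70 RPKM in knockdown cells, and the adjusted p without batch 1 was 0.076.

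The other composite proximal exons that rose belonged to Pdcl, Zfp672, Srsf1, Klf6, Ppa1, Pdzrn3 and Araf. Pdcl, a phosducin-like regulator of G protein assembly, had 0.28%, 0.46% and 0.28% in control cells. In knockdown cells it had 0.80%, 57.6% and 23.9%, so the rise in batch 1 was slight. The reference transcript of Pdcl ends at this proximal exon. Its distal exon was seen in 3 new transcripts only, behind an intron of up to 231404 nt. Srsf1, the splicing factor that founded the SR family, had its composite exon of 4410 nt at 24.6%, 30.5% and 20.4%, then 32.1%, 38.3% and 28.6%. That is a rise of 7.47 to 8.25 points within each batch although the groups overlap (adjusted p 0.017). Araf, a Raf kinase, also rose in each batch with overlapping groups, with 31.6%, 46.6% and 34.9% against 37.1%, 53.3% and 40.4% (adjusted p 0.041). In Klf6, Ppa1 and Pdzrn3 the distal exon was listed at 0 in all knockdown libraries after 0.61% to 3.74%, 2.67% to 27.0% and 3.56% to 11.1% in control libraries. The distal exon was 4 nt long in Ppa1 and 5 nt in Pdzrn3. Zfp672 went from 81.1%, 95.5% and 79.0% to 97.0%, 97.5% and 98.1% (adjusted p 0.036). Pdcl, Srsf1 and Araf were not called in any fit that left out a batch. Without batch 1 the adjusted p was 0.11 for Klf6, 0.066 for Ppa1 and 0.15 for Zfp672, and without batch 3 it was 0.089 for Klf6 and 0.076 for Zfp672.

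Composite proximal exons fell in Wdr59, Marveld2, Armc8, Iws1, Nkx2-2 and XLOC_014079 besides Tubb2a. Armc8, a subunit of the CTLH ubiquitin ligase, had 37.0%, 25.5% and 40.5% in control and 20.6%, 17.2% and 24.1% in knockdown cells (chr8:107189844-107191478, minus strand; relative log2 change -1.04, SE 0.11, adjusted p 0.011). Wdr59, of the GATOR2 complex in amino acid sensing, had 78.4%, 54.0% and 75.3%, then 38.7%, 23.2% and 55.9%, lower in each batch with a slight overlap of the groups (adjusted p 0.038). Nkx2-2, a homeodomain factor needed for beta cell identity, ended at its reference composite exon (chr3:147820085-147827872) in 93.0%, 91.6% and 89.5% in control and 90.02%, 88.0% and 86.8% in knockdown cells. The fall was small, 2.66 to 3.61 points in each batch, and the groups overlapped (adjusted p 0.015). Marveld2, the tight junction protein tricellulin, was at 100% proximal use in all controls and at 94.4%, 54.2% and 69.2% in knockdown cells, its 49-nt distal exon being listed at 0 in control libraries. Its gene level was 6.80, 2.98 and 3.34 RPKM, then 7.09, 12.9 and 7.18 RPKM. Without batch 1, the adjusted p was 0.066 for Armc8, 0.12 for Wdr59, 0.093 for Nkx2-2 and 0.076 for Iws1. Without batch 2 it was 0.068 for Wdr59, 0.058 for Nkx2-2, 0.10 for Marveld2 and 0.081 for Iws1, and without batch 3 it was 0.14 for Marveld2.

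XLOC_014079 is a locus with no symbol. Its 65-nt composite exon (chr18:86670507-86670571, plus strand) held 55.8%, 41.0% and 52.1% of XLOC_014079 in control cells and was listed at 0 in all knockdown libraries (adjusted p 0.0018, and 0.018 to 0.037 when a batch was left out).

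Among proximal exons inside an intron, most called ones fell. Aatf, a transcription regulator linked to apoptosis and ribosome assembly, had a 177-nt intronic exon (chr10:71727344-71727520, minus strand) at 26.1%, 30.9% and 42.8% in control and 3.11%, 4.80% and 2.80% in knockdown cells. The groups were well apart, with a relative log2 change of -3.81 (SE 0.48, adjusted p 0.018). Sept8, a septin found on synaptic vesicles, had a 2791-nt intronic exon with a reference transcript (chr10:38680061-38682851, plus strand) at 46.6%, 43.4% and 44.6%, then 31.5%, 24.0% and 34.5%. The fall was 14.9 points (relative log2 change -0.89, SE 0.14, adjusted p 0.037). Syt16, of the synaptotagmin family, had a 124-nt intronic exon at 99.0%, 99.7% and 99.7%, then 86.6%, 74.0% and 87.2% (adjusted p 0.011). Its 3 reference transcripts end at the distal exon. Mrpl37, a protein of the mitochondrial ribosome, had 52.8%, 44.5% and 52.6%, then 40.4%, 26.4% and 33.7% (adjusted p 0.016), and Zkscan5, a zinc finger gene, 5.39%, 8.004% and 10.2%, then 0%, 0% and 1.18% (adjusted p 0.030). Casz1, a zinc finger transcription factor, had 70.5%, 77.0% and 85.1%, then 38.4%, 23.9% and 41.8% (adjusted p 0.027), but its proximal exon (chr5:169411838-169413089) follows an intron of 5 nt. That gap is part of a reference transcript, and Casz1 was the only called gene with a last intron under 30 nt. Without batch 1 the adjusted p was 0.070 for Aatf, 0.15 for Sept8, 0.057 for Casz1 and 0.13 for Zkscan5, and without batch 2 it was 0.059, 0.078, 0.084 and 0.10, with 0.058 for Mrpl37.

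Intronic proximal exons rose in Ap1s2, Whsc1 and Zbtb8os-ps1. Ap1s2 encodes a small subunit of the clathrin adaptor AP-1, which sorts cargo at the trans-Golgi network and on maturing secretory granules. Its 1422-nt intronic exon (chrX:32695525-32696946, minus strand) held 14.4%, 16.3% and 16.5% in control and 21.4%, 25.4% and 21.4% in knockdown cells (relative log2 change 0.64, SE 0.10, adjusted p 0.037). Whsc1, a histone methyltransferase gene known for short and long proteins, had a 4848-nt intronic exon (chr14:82823606-82828453, minus strand) at 4.64%, 9.34% and 6.89%, then 10.8%, 21.4% and 20.5% (relative log2 change 1.45, SE 0.17, adjusted p 0.015). Neither gene's groups overlapped. Without batch 1 the adjusted p was 0.14 for Ap1s2 and 0.068 for Whsc1, and without batch 3 it was 0.059 for Ap1s2. Zbtb8os-ps1 had a 21-nt exon at 7.34% and 4.78% with the control siRNA against 23.2% and 35.8% after knockdown in batches 1 and 3, and listed at 0 in both libraries of batch 2 (adjusted p 0.020, and 0.061 without batch 2).

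**Figure D5:**
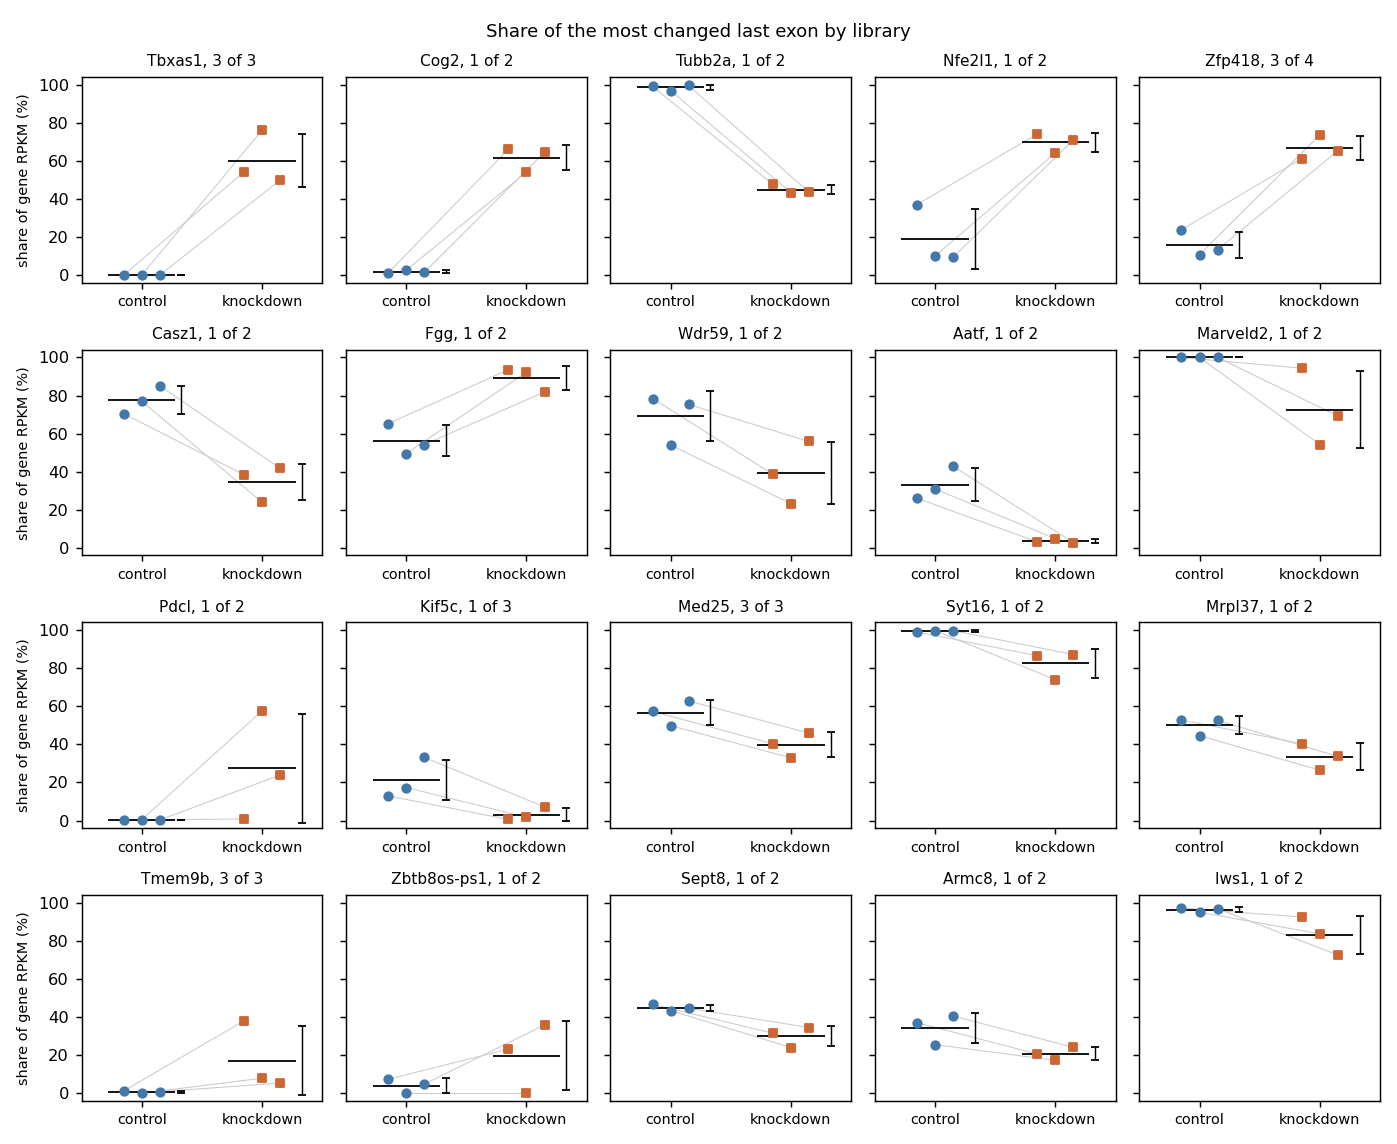
Share of the most changed last exon (percent of gene RPKM) in the 20 called genes with a symbol and the largest change, with the exon's number and the number of last exons in each panel title; points are libraries, grey lines join the libraries of a batch, and bars give mean and SD of 3 libraries. Cog2 and Tubb2a sit far apart between groups in all batches, while Pdcl moved mainly in batches 2 and 3 and Tmem9b mainly in batch 1.

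Proximal exons that end within an internal exon fell in Arhgap44, Srsf5 and Limd1 and rose in Itga3 and Nelf. Arhgap44 had an 8-nt exon with a reference transcript at 15.8%, 18.8% and 14.9% in control and 7.36%, 6.66% and 6.28% in knockdown cells (adjusted p 0.010). Itga3, the alpha-3 subunit of a laminin-binding integrin, had a proximal exon of 111 nt (chr10:82668830-82668940, minus strand) listed at 0 in control libraries and at 8.45%, 6.29% and 0.91% in knockdown libraries. Srsf5, another SR protein, had 5.50%, 12.95% and 3.42%, then 2.18%, 7.60% and 2.23%, lower in each batch with overlapping groups (adjusted p 0.034). Limd1 had 85.7%, 79.0% and 83.8%, then 79.4%, 71.7% and 78.9% (adjusted p 0.018). Nelf had 10.3%, 10.1% and 8.12%, then 20.2%, 23.7% and 18.5% (adjusted p 0.028). Without batch 1 the adjusted p was 0.053 for Arhgap44 and 0.066 for Itga3, without batch 2 it was 0.070 for Itga3, and Srsf5, Limd1 and Nelf were not called in any fit that left out a batch.

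The remaining 11 called genes had more than 2 last exons. Tbxas1, thromboxane A synthase, moved the farthest: its most distal exon (68 nt, chr4:66660421-66660488, plus strand, in a new transcript) was listed at 0 in all controls and held 54.3%, 76.2% and 49.95% in knockdown cells. Its 37-nt intronic exon went from 29.9%, 45.9% and 46.5% to 0%, 6.31% and 2.84%. The adjusted p was 0.010, and 0.053 without batch 1, in a gene of only 1.20 to 2.85 RPKM. Zfp418, a zinc finger gene with 4 last exons, had a 5-nt exon at 23.8%, 10.8% and 13.4%, then 61.2%, 73.6% and 65.3%, with an adjusted p of 0.088 once last exons under 50 nt were left out. Its composite exon 2 (chr1:71078578-71081083) went from 38.6%, 69.6% and 44.5% to 25.3%, 13.9% and 18.8% (adjusted p 0.010, and 0.055 without batch 3).

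Med25, of the Mediator complex that links transcription factors to RNA polymerase, was among the most even of these. Its most distal exon had 57.3%, 49.8% and 62.8% in control and 40.3%, 32.9% and 45.9% in knockdown cells, a fall of 16.9 to 17.0 points in each batch (adjusted p 0.034). Kif5c, a neuronal kinesin heavy chain, had a 111-nt reference last exon at 12.95%, 17.3% and 33.2%, then 0.56%, 1.71% and 7.13% (adjusted p 0.035). Ints7, of the Integrator complex that cleaves nascent RNA, had its composite exon at 22.7%, 56.2% and 31.4%, then 37.8%, 64.7% and 45.1%, higher by 8.48 to 15.1 points within batches although the batches differed by more (adjusted p 0.018, and 0.096 once last exons under 50 nt were left out). Fam174b, at 82.2 RPKM or more in every library, had its first last exon at 56.0%, 56.8% and 62.3%, then 66.6%, 64.0% and 74.6% (adjusted p 0.013). Dhdds, which makes the dolichol needed for glycosylation, had its main composite exon at 68.2%, 64.8% and 65.0%, then 63.4%, 57.4% and 60.1% (adjusted p 0.044, and 0.0504 once last exons under 50 nt were left out), but was called in no fit that left out a batch. Without batch 1 the adjusted p was 0.11 for Med25, 0.071 for Kif5c, 0.071 for Ints7 and 0.081 for Fam174b, without batch 2 it was 0.090 for Kif5c, and without batch 3 it was 0.086 for Med25, 0.081 for Ints7 and 0.053 for Fam174b.

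Atp5a1, the catalytic-core alpha subunit of mitochondrial ATP synthase, was the most abundant called gene, at 277 to 414 RPKM. Last exons of 2 nt and 1 nt preceded its 825-nt distal exon, and the 1-nt exon went from 21.5%, 13.4% and 10.9% to 5.53%, 5.42% and 6.16% (adjusted p 0.016, and 0.081 without batch 2). Abcb9, a lysosomal peptide transporter, and Slc35d3, of the nucleotide sugar transporter family, each had a last exon listed at 0 in one group, at 1.22% to 13.9% in controls for Abcb9 and at 4.37% to 6.19% in knockdown cells for Slc35d3. Neither was called without batch 1 (adjusted p 0.076 and 0.091), and Slc35d3 was not called without batch 3 (0.13) or when only its last exons above 0 in all libraries were kept (0.78).

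Features of the called genes are given here beside those of all 1483 tested genes, with no test. A last exon listed at 0 in all libraries of a single group occurred in 11 of the 43 genes (25.6%) and in 60 of the tested genes (4.05%), a measure taken from the same contrast as the calls. A last exon under 10 nt occurred in 6 (14.0%) and 136 (9.17%), and one under 50 nt in 14 (32.6%) and 471 (31.8%). Once last exons under 50 nt were left out, Arhgap44, Atp5a1, Marveld2, Pdzrn3, Ppa1, Zbtb8os-ps1 and the unnamed locus XLOC_008180 had no test. Their calls rest on such short exons. A reference transcript ended at more than 1 last exon in 7 of the 43 genes (16.3%), against 350 of the 1679 members (20.8%). In the other 36 called genes it ended at 1 last exon only. In the 32 called genes with 2 last exons, the transcripts that rose were the longer ones in 20 and the shorter ones in 12, and in the 1157 such genes tested the counts were 617 and 540.

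Large moves that did not pass the test were found in both directions. Cul7, a cullin scaffold of a ubiquitin ligase, had a distal share of 20.1%, 10.4% and 17.5% in control libraries against 69.9%, 60.6% and 31.8% in the knockdown (adjusted p 0.074). Tinagl1, a matricellular protein gene, had 5.03%, 13.05% and 27.3%, then 78.8%, 62.7% and 46.1% (adjusted p 0.099). Map3k15, a stress kinase gene, had 99.3%, 47.4% and 100%, then 21.8%, 20.9% and 12.6% (adjusted p 0.22), and Sugp2, an RNA-binding protein gene, 88.8%, 96.3% and 39.2%, then 18.1%, 31.2% and 22.1% (adjusted p 0.099). In Cul7, Map3k15 and Sugp2 1 library of a group lay far from its partners. The other genes of this kind were Ddo, Nek4, Crtap and Cc2d1a, with a higher distal share, and Gon4l, Dpm1, 2410004P03Rik and Atp13a3, with a lower one.

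The factors that make 3′ ends were themselves partly in this group. Of 23 tested cleavage and polyadenylation factors 0 were called higher and 0 lower in gene expression by limma (5 at an unadjusted p under 0.05), and the same held for 11 U1 snRNP and elongation factors (3 at an unadjusted p under 0.05). Of 23 tested gene models of RNA-binding proteins known to affect last exons, with Hnrnpc at separate loci, Nova1 alone was called, as lower. Among these models 7 had an unadjusted limma p under 0.05. On log2(RPKM + 0.1) limma called 0 of all genes. Alternative last exons were present in 9, 3 and 8 genes of these lists, and 0 of these 20 were called for last exon use, with 1, 0 and 1 at an unadjusted p under 0.05. With 2.50% of all models called for last exon use, 0 of these 20 cannot be told from that share. The nearest to a call was Cpsf1, the largest subunit of the polyadenylation signal reader, whose reference proximal exon (chr7:117649788-117649990, minus strand) had 39.1%, 34.4% and 76.6% in control libraries against 9.25%, 17.0% and 16.7% in the knockdown (adjusted p 0.068). Cdk13, a kinase of elongating RNA polymerase, had its intronic exon at 89.7%, 88.7% and 88.9%, then 92.7%, 92.5% and 90.4% (adjusted p 0.47). In Srsf3 and Snrnp70 the values followed batch 2: the 44-nt intronic exon of Srsf3, a splicing factor gene, was listed at 60.2%, 0% and 44.5%, then 23.8%, 0% and 59.95%, and the U1 protein gene Snrnp70 had a composite exon at 16.6% in both libraries of batch 2 and at 2.24% or less elsewhere.

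Gene expression in the members was tested with limma on all 15983 genes with enough reads. In knockdown cells 7 of the 1679 members (0.417%) were called higher, against a background of 0.513%, and 28 (1.67%) lower, against 1.20%. The median log2 fold change was 0.04 over members and 0.00 over all genes. Slc35a2, the Golgi transporter of UDP-galactose, was at 36.3, 47.7 and 37.7 CPM in control libraries against 18.3, 26.4 and 18.9 CPM in the knockdown (log2 fold change -0.94, SE 0.06). Stx3, a SNARE protein of exocytosis, was at 38.6, 26.5 and 37.8 CPM, then 19.0, 17.6 and 21.9 CPM (log2 fold change -0.81, SE 0.09). Ulk2, an autophagy kinase gene, was at 30.1, 31.5 and 30.5 CPM, then 43.9, 45.1 and 42.8 CPM (log2 fold change 0.52, SE 0.05). In these 3 genes the groups did not overlap, with adjusted p of 0.036, 0.042 and 0.036. Lyz2, a macrophage lysozyme gene and one of the immune markers, was at 3.42, 3.47 and 1.54 CPM, then 7.97, 12.8 and 3.26 CPM. The calls depended on the fit: 0 members were called without the block, and 1, 0 and 12 without batch 1, 2 and 3, and over all genes, Nova1 included, 0 were called without batch 2 or without the block. With scaling factors taken over all genes instead of those with enough reads, 1 member was called higher and 10 lower, and with library totals alone 5 higher and 7 lower.

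Only Tmem9b, a transmembrane protein gene, was called both in expression and in last exon use, which is 2.33% of the 43 last exon calls. It fell from 120, 92.9 and 161 CPM in control to 54.5, 43.3 and 84.1 CPM in knockdown libraries (log2 fold change -1.05, SE 0.06, adjusted p 0.036). Its distal exon (chr1:181336800-181337424, minus strand) had 1.22%, 0% and 0.77% in control libraries against 38.0%, 7.87% and 5.34% in the knockdown (adjusted p 0.026, and 0.19 without batch 1). The expression call was lost without batch 1 or batch 2.

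A test of single transcripts in place of last exons called 18 of 1635 members (1.10%), against 0.734% of all 9538 genes tested, and 14 of the 18 were among the 43 genes called for last exons. Both tests used the same libraries and estimated reads, so this overlap is no independent check. Leaving out any batch left 0 of the transcript calls among members.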

How the data were processed

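RNA-seq reads of 6 libraries were processed by the authors with tools including TopHat and with the build Rnor_5.0, per the submitters' processing notes. For each transcript the authors deposited an estimated count, a length and an RPKM value, held as text beside exon lines; the program that counted reads, and whether it used strand, was not given in the sources used here, so overlapping and antisense genes may share reads. Last exons with the same acceptor, and overlapping last exons, were joined. Counts were summed per last exon, transcript and gene model, scaled with TMM (the trimmed mean of M values method, trimming 30% by M and 5% by A) over genes with enough reads, a choice made after counts of calls were seen, and fitted with limma 3.58.1 (R 4.3.3; voom, diffSplice), batch as a block, 2 residual degrees of freedom. Features needed the equivalent of 10 reads in 3 libraries and 15 in total. Shares and figures used Python 3.11.15, pandas 2.3.3 and matplotlib 3.10.9.

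Batch numbers pair libraries by label. Deviations of last exon shares from group means correlated at 0.10, 0.18 and 0.03 within batches 1, 2 and 3. Between libraries of different batches they ran from -0.13 to 0.05, so the value of batch 3 did not stand out. The method was tested on simulated reads. Members and lists were chosen with earlier results of these data known. Named genes were called members with the largest change (20), the largest changes without a call (12), list members, expression calls with the largest fold change (6 each way), and genes with most or most even last exons. The 12 were the 6 largest rises and 6 largest falls of the most distal last exon. In these the groups did not overlap and all 3 batches moved the same way. Other called genes were named after their values were seen.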

Additional observations from a re-analysis of the deposited data

How the results depend on the processing

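Last exon calls, 43 genes, were 19 without the replicate block (14 of them among the 43) and 26 on log2(RPKM + 0.01) (21 of them among the 43). They were between 33 and 110 when each batch was left out, and 11 to 27 of the 43 were still called there. Library totals, median of ratios or scaling over all genes, other read filters, log2(RPKM + 0.1) or + 1, the F test, and subsets without overlapping last exons, with at least 5% of the gene, with a shared intron, of at least 50 nt, above 0 in all libraries or behind an intron of at least 30 nt gave between 31 and 45. These were not always the same genes. Of the 43, 21 were still called on log2(RPKM + 1) and 25 on log2(RPKM + 0.1). Still called were 30 with last exons above 0 in all libraries, 32 without overlapping last exons and 33 with at least 50 nt. The other settings of this group kept 38 or more. The subsets by length, by 0 and by intron and scaling over all genes were chosen after seeing the data. Expression calls, 35 members, were 0 without the replicate block, between 0 and 12 when each batch was left out, 12 with library totals, 11 with scaling over all genes, 34 to 37 with median of ratios or other read filters, and 0 on log2(RPKM + 0.1), + 1 or + 0.01. Transcript use calls, 18, were 17 without the replicate block and 0 when any batch was left out. Genes with shares that do not overlap, 200, were between 537 and 664 when each batch was left out, where 2 libraries face 2, and 199 or 200 with other share definitions. For named genes no direction was reversed: last exon use kept its side of the threshold in 779 refits, lost the call in 165 and gained it in 13. With shares from reads instead of RPKM, 8 share changes moved by more than 1 SD; the genes were Tubb2a, Aatf, Fam174b, Slc35d3, Arhgap44, Zkscan5, Nelf and Nkx2-2, and the cause was not tested. Reads of a last exon include reads of shared upstream exons, so depth at the last exon itself is smaller than the estimate implies.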
